A study of Mus musculus with 6 samples.

Results

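Cytosolic ribosomal protein genes were read on Affymetrix Mouse Genome 430 2.0 arrays hybridised with RNA of the arcuate hypothalamus of mice aged 2 weeks. The members were the probe sets, groups of short oligonucleotides that together report on 1 transcript, whose only gene symbol in the array annotation was that of a ribosomal protein of the cytosolic 60S or 40S subunit. The symbol rule took 100 of 45037 tested probe sets, which stood for 46 of 18193 genes with such a probe set, 24 of the large subunit and 22 of the small. The arrays came from 3 POMCDicerKO mice or pools, whose Pomc-expressing cells lack Dicer, the enzyme that matures microRNAs, and from 3 controls. Strain was given for both as mixed C57Bl/6J, FVB/N and 129. Each array held a separately numbered sample. The p-values measure the spread between these samples taken as independent, which the labels do not state. The labels do not give the Cre driver, whether controls carried floxed alleles or Cre, or whether a sample held 1 animal or a pool. Pomc neurons are few among the cells of the dissection, so the arrays read ribosomal protein transcripts of all cell types together, and fewer cells and less RNA per cell cannot be told apart.

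The ribosome translates messenger RNA into protein. Its small subunit decodes the message, and its large subunit joins the amino acids and carries a lateral stalk of acidic P proteins that recruits translation factors. Each ribosomal protein is normally made in step with the others, and in mammals most of their transcripts begin with a short tract of pyrimidines, the 5′ terminal oligopyrimidine tract, through which the mTOR pathway sets their translation. Neurons use ribosomes in the cell body and in dendrites and axons.

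Dicer1 itself, the targeted gene, was read by 2 probe sets whose place relative to the deleted exons the labels do not give. Probe set 1460571_at read 9.18, 9.19 and 9.33 in POMCDicerKO and 9.22, 9.18 and 9.24 in controls, and 1427941_at read 7.21, 7.21 and 7.45 in POMCDicerKO and 7.06, 7.27 and 7.27 in controls. The groups overlapped at both, with log2 fold changes of 0.018 and 0.090, so Dicer1 levels in the whole tissue do not check the labels. Pomc, in the cells targeted, did not overlap between groups, with 9.35, 9.71 and 9.43 in POMCDicerKO and 9.94, 10.87 and 9.76 in controls.

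Runs of C or T near annotated starts can be read in the genome, as the following windows show for genes named here. A run marked in a window need not lie at the start itself. RefSeq start sites of assembly GRCm38.p6 were found for 40 of the 46 genes, 7 of them with several starts. Each line gives 15 bases before the annotated start and the 15 bases from it onward, on the gene's strand, and the capitals mark the longest run of C or T in the window. Rps24, Rps27l and Rpl3l have a second annotated start, in whose window the longest run was 4 bases in each gene, and the start with the longer run is printed. The first 6 lines belong to genes of the lower probe sets described here, Rps6 is the target of S6 kinase, and Rpl3l and Rpl39l are tissue-restricted paralogs.
Rps9 (chr7:3704026-3704055, plus strand): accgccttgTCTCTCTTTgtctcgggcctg
Rpl39 (chrX:37085208-37085237, minus strand): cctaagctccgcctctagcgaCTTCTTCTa
Rpl13a (chr7:45128731-45128760, minus strand): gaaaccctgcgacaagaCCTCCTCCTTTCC
Rps27l (chr9:66946071-66946100, plus strand): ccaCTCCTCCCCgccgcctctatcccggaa
Rpl35 (chr2:39005117-39005146, minus strand): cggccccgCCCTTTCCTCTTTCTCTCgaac
Rps24 (chr14:24490663-24490692, plus strand): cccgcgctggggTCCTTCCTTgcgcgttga
Rps6 (chr4:86857353-86857382, minus strand): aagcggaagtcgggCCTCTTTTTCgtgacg
Rpl3l (chr17:24727811-24727840, plus strand): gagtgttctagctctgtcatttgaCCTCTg
Rpl39l (chr16:10170213-10170242, plus strand): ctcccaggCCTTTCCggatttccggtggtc

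Among the printed windows the run was 18 bases for Rpl35, 13 for Rpl13a and 5 for Rpl3l. Over all 40 genes it reached 21 bases, for Rpl7a, and was 3 bases at Rpl11, Rpl41, Rps3 and Rps15. A run of 6 or more C or T stood in the window of at least 1 start in 26 of the 40 genes (65%), against 32.7% of the 27025 genes with a start in the table. Such a run reached within 5 bases of the annotated start in 22 of the 40 (55%), against 25.1% of all genes. The motif CTTTC, searched in the same window on the gene's strand, was present in 11 of 40 genes (27.5%) and in 4.76% of all genes. On the opposite strand it was present in 0 of 40 and in 4.21% of all genes. Over the whole 300 bases, from 250 before the start, and on both strands, the ETS factor motif CCGGAAG was present in 20 of 40 genes (50%) and in 9.93% of all genes, and the YY1 motif AAGATGGC in 3 of 40 (7.5%) and in 3.19%. The motifs were searched as written, and since CCGGAAG ends with the AAG that begins AAGATGGC, one stretch can hold both in overlap. Such matches describe the windows, and annotated starts can lie some bases away from those used in the hypothalamus.

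In POMCDicerKO, ribosomal protein transcripts stood within a few percent of control at most probe sets, with more probe sets below control than above. Of the 100 probe sets, 78 had a lower mean in POMCDicerKO and 22 a higher one, where 49.4% of all tested probe sets had a lower mean. The median log2 fold change, POMCDicerKO minus control, was -0.032, against 0.001 over all tested probe sets. These counts depended on 1 array: without POMCDicerKO 1, 61 of the 100 were lower and the median was -0.012, while without POMCDicerKO 3, 87 were lower and the median was -0.051. None passed limma's threshold of an adjusted p under 0.05 (0 of 100, with 0% of all probe sets passing), and the smallest adjusted p was 0.417. At an unadjusted limma p under 0.05 there were 2 of 100, against 2.44% of all probe sets, and both, of Rps9 and Rpl39, were lower, against 1.2% of all. With a trended, robust variance prior 1 passed, a probe set of Rps9.

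The size of the differences was small beside what the arrays could resolve. At 85 of the 100 probe sets the log2 fold change was under 0.1 in size, which left 15 of at least 0.1, against 24.1% of all probe sets. The 95% interval of the fold change lay within 0.5 of 0 at 99 of 100 probe sets, against 93.7% of all. The exception was 1 probe set of Rps9. The median residual SD was 0.054 for the members and 0.105 for all probe sets. Members were bright, with a median level of 12.13 against 6.02, and among the 1591 probe sets with a mean of at least 11, 60 of them members, the median residual SD was 0.062. Of these 60 members, 54 were lower by value, against 52.4% of all 1591, and the groups did not overlap at 10, against 5.66%. In that bright range the members' median log2 fold change was -0.036 and that of all such probe sets -0.002. Levels of different probe sets cannot be set against each other as amounts of transcript, since each has its own probes.

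Rps9, a protein of the small subunit with a role in decoding accuracy, gave the members' largest difference, at 1 of its 3 probe sets. Probe set 1434624_x_at read 10.72, 10.70 and 10.68 in POMCDicerKO 1 to 3, against 11.40, 11.27 and 11.43 in controls 1 to 3. The groups lay far apart, with the 3 POMCDicerKO arrays nearly equal. The log2 fold change was -0.67 (standard error 0.069), with a 95% interval from -0.83 to -0.51 and a 1.59-fold difference (limma adjusted p = 0.417). The two-sided exact permutation p was 0.1, the smallest that 3 against 3 arrays can give. With the robust, trended prior the adjusted p was 0.0362 by limma, and with the trend alone 0.0511. Over the other alternatives it ran from 0.266 to 1.

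The other probe sets of Rps9 did not show that difference. Probe set 1433689_s_at read 12.40, 12.53 and 12.49 in POMCDicerKO and 12.46, 12.55 and 12.43 in controls, so the groups overlapped. Its log2 fold change was -0.005, with a 95% interval from -0.16 to 0.15, and it turned to 0.011 after a further quantile normalisation. Probe set 1426958_at, near the lower end of the scale, read 5.33, 5.42 and 5.55 in POMCDicerKO and 5.14, 5.52 and 5.24 in controls, a log2 fold change of 0.14 (standard error 0.11.) The suffix _x_at marks probe sets with some probes that also match other transcripts, and _s_at marks probes shared between several. Which Rps9 transcripts or related sequences each set reads was not tested, because probe sequences were not used here.

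**Figure D1:**
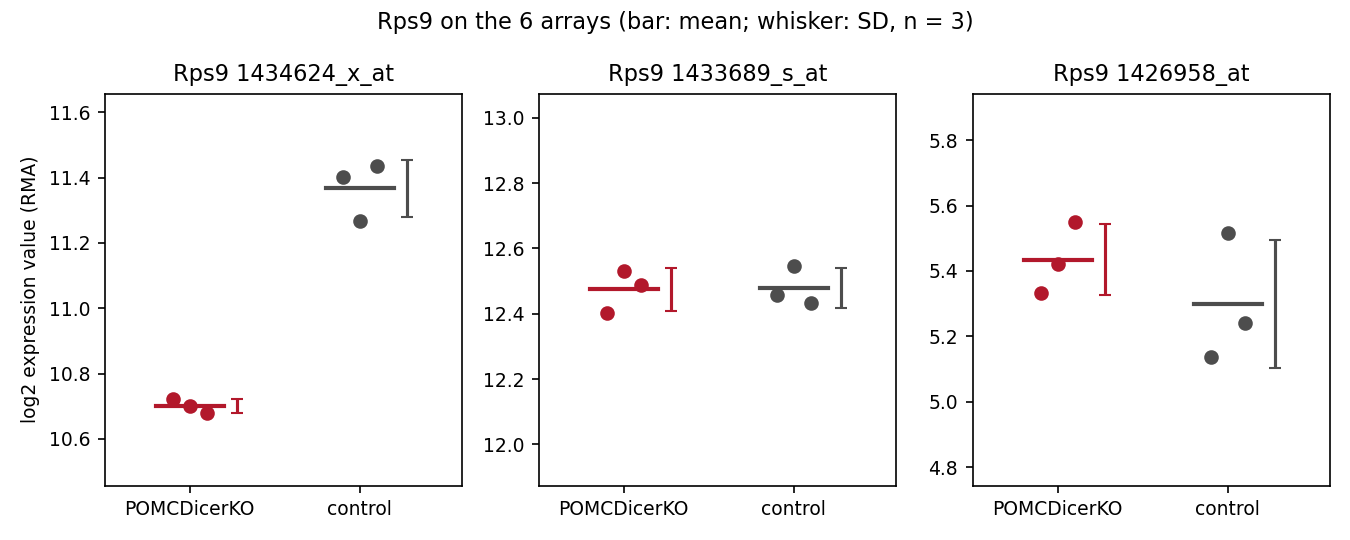
Log2 expression values of the 3 Rps9 probe sets on each array, POMCDicerKO left and control right, with points for arrays, a bar for the mean and a whisker for the SD (n = 3), each panel spanning the same height on its own axis. The groups lie apart at 1434624_x_at, with 10.68 to 10.72 in POMCDicerKO against 11.27 to 11.43 in controls, and overlap at the other probe sets.

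Rpl39, a small protein of the large subunit at the peptide exit tunnel, had the next smallest p. Its only probe set, 1423032_at, read 6.74, 6.71 and 6.71 in POMCDicerKO and 6.83, 6.93 and 6.86 in controls, with no overlap. The log2 fold change was -0.16 (standard error 0.062), with a 95% interval from -0.30 to -0.010 (limma adjusted p = 1, unadjusted p = 0.0389, exact permutation p = 0.1). This is a 1.11-fold difference at a dim probe set. In other mammalian work Rpl39l is the paralog of Rpl39 used in testis, and its probe set 1423327_at read 4.0007, 3.98 and 4.54 in POMCDicerKO and 4.23, 4.19 and 4.08 in controls. Those values lie near the lower end of the scale and overlap, with a log2 fold change of 0.007 that was -0.004 after a further quantile normalisation, -0.0001 with each array centred and -0.17 without POMCDicerKO 3.

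The groups did not overlap at 13 of the 100 probe sets, 12 with POMCDicerKO lower and 1 with it higher. Of all tested probe sets, 6.36% did not overlap, 3.22% with POMCDicerKO lower and 3.14% with it higher. Besides Rps9 and Rpl39, the lower ones belonged to Rps27l, Rpl13a, Rpl35, Rps24 (2 probe sets), Rps26, Rpl27, Rps18, Rpl11 and Rps10. The higher one, 1437413_x_at of Rps29, had a log2 fold change of 0.039. The limma adjusted p was 1 at each of these except that of Rps9.

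**Figure D2:**
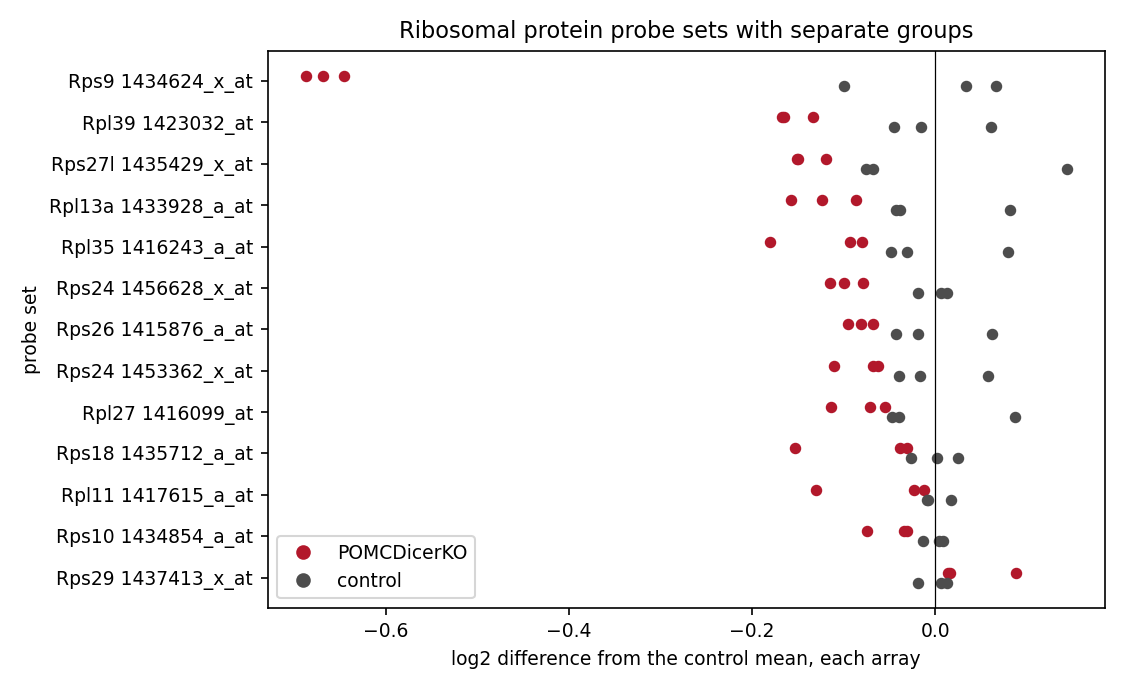
Log2 difference from the control mean on each of the 6 arrays for the 13 ribosomal protein probe sets whose groups do not overlap, red for POMCDicerKO and grey for control. Apart from Rps9 1434624_x_at, at -0.67, the group means differ by at most 0.16.

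Among large subunit genes, Rpl13a, which besides its place on the ribosome binds interferon-controlled messages in human cells, gave differences of different size at its 4 probe sets. Probe set 1433928_a_at read 9.93, 9.97 and 9.90 in POMCDicerKO and 10.01, 10.14 and 10.02 in controls, a log2 fold change of -0.12 (standard error 0.066.) Its other 3 probe sets, all with overlapping groups, were at -0.034, -0.060 and -0.011. Rpl35, near the exit tunnel, had 6 probe sets. Its lowest, 1416243_a_at, read 11.88, 11.98 and 11.97 in POMCDicerKO and 12.03, 12.14 and 12.01 in controls, at -0.12 with a standard error of 0.068. The other 5 ran from -0.091 to 0.019 with overlapping groups. At both genes the other probe sets stood closer to control, which follows largely from naming the probe set with the smallest p first.

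Further large subunit values were those of Rpl14, Rpl27, Rpl11, Rpl22 and Rpl41. Rpl14 read 6.77, 6.9998 and 6.87 in POMCDicerKO and 6.89, 7.14 and 7.05 in controls, with overlap, at -0.15 with a standard error of 0.091. Rpl27 stood at -0.080, -0.069 and -0.051 at its 3 probe sets. Rpl11, which with Rpl5 and 5S ribosomal RNA binds Mdm2 when ribosome assembly is disturbed, was at -0.055. Rpl5 had no probe set of its own symbol alone. Rpl22, an RNA-binding protein not needed for translation in general, was at 0.062 at 1448398_s_at, with 9.11, 9.16 and 9.25 in POMCDicerKO and 9.08, 9.12 and 9.14 in controls, but at -0.012 and -0.036 at its other probe sets. Rpl41, the smallest ribosomal protein, was at 0.12 at the dim 1433530_at, with 6.36, 6.45 and 6.82 in POMCDicerKO and 6.33, 6.55 and 6.39 in controls. POMCDicerKO 3 carried that value, which was -0.021 without it. The bright probe sets of Rpl41 were at -0.044 and -0.047, and 1454639_x_at was at 0.002.

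The stalk genes stood close to control. Rplp0, the base of the stalk, read 12.18, 12.25 and 12.23 in POMCDicerKO and 12.23, 12.28 and 12.26 in controls, at -0.040 with a 95% interval from -0.18 to 0.10. Rplp2, a P protein, read 12.94, 13.01 and 12.96 in POMCDicerKO and 13.05, 13.06 and 12.99 in controls, at -0.066 with a 95% interval from -0.21 to 0.078. The groups overlapped at both, and Rplp1, the other P protein, had no probe set of its symbol alone.

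Among small subunit genes, Rps27l gave 3 probe sets that all lay lower. The gene encodes a near copy of Rps27 that is induced by p53 in human cells. Probe set 1435429_x_at read 9.70, 9.73 and 9.70 in POMCDicerKO and 9.79, 10.00 and 9.78 in controls, a log2 fold change of -0.14 (standard error 0.078) and no overlap. Probe set 1450925_a_at was also at -0.14, and 1423254_x_at at -0.084, both with overlap. Control 2 held the highest value at all 3. Rps27 itself, with its zinc finger on the small subunit's surface, read 7.56, 7.65 and 7.76 in POMCDicerKO and 7.71, 7.73 and 7.83 in controls, at -0.096 with overlap.

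Rps24, a protein mutated in Diamond-Blackfan anaemia in humans, was lower by value at each of its 6 probe sets, from -0.098 to -0.011. Probe set 1456628_x_at read 12.12, 12.14 and 12.16 in POMCDicerKO and 12.24, 12.25 and 12.22 in controls, with no overlap and a standard error of 0.058. Its dimmer probe sets were less stable: 1455195_at, at -0.065, turned to 0.074 without control 3, and 1436500_at, at -0.011, to 0.030 without control 1. Rps10, of the entry to the message channel, was also lower by value at each of its 6 probe sets, from -0.067 to -0.002. Rps26, which lies at the message exit channel, read 12.46, 12.45 and 12.47 in POMCDicerKO and 12.52, 12.60 and 12.50 in controls, at -0.082.

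The small subunit probe sets with the smallest p above control were mostly dim. Rps3 1447563_at read 5.39, 5.38 and 5.69 in POMCDicerKO and 5.38, 5.30 and 5.34 in controls, at 0.15 with a standard error of 0.095, while its brighter probe sets were at -0.053 and -0.002. Rps3 is a protein of the message entry channel that also has a role in DNA repair. Rpsa, which doubles as the laminin receptor, was at 0.12 at the dim 1416196_at and at 0.006 at the bright 1448245_at, where the arrays read 12.66, 12.59 and 12.68 in POMCDicerKO and 12.65, 12.64 and 12.61 in controls. Rps6, the substrate of S6 kinase that serves as a readout of neuronal activity and mTOR signalling, was at 0.11 at the dim 1453466_at and at -0.065 at 1416142_at, with overlap at both. None of these separated the groups.

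At the further paralogs Rpl3l and Rps4l the groups overlapped. Rpl3l, the muscle copy of Rpl3, read 4.55, 4.43 and 4.39 in POMCDicerKO and 4.36, 4.72 and 4.38 in controls, at -0.026 with a standard error of 0.11. It turned to 0.092 without control 2. Rps4l, a copy of Rps4x that RefSeq lists as a transcribed pseudogene, read 10.13, 10.06 and 10.41 in POMCDicerKO and 10.14, 10.07 and 10.08 in controls. Its log2 fold change of 0.10 came from POMCDicerKO 3 and was -0.004 without it. Rps4x, on the X chromosome, was at -0.025 at the bright 1416276_a_at and at 0.095 at the dim 1420303_x_at.

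The remaining 34 probe sets, of 21 genes, ran from -0.13 to 0.046, with 28 lower and 6 higher by value. Their groups overlapped at every probe set by the choice of the set, which left out genes at which groups did not overlap. The lower end was Rpl12, of the base of the stalk, which read 7.13, 6.97 and 7.29 in POMCDicerKO and 7.02, 7.26 and 7.495 in controls, a wide spread in both groups. The upper end was Rps16, at 0.046 at a dim probe set. Rps19, the gene most often mutated in Diamond-Blackfan anaemia in humans, was at -0.058, and Rpl38, which in mice is needed for translation of Hox messages, at -0.072. These extremes and genes were chosen after their values were seen.

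Counts by subunit were as follows. Of 44 large subunit probe sets, 36 were lower by value and 8 higher, with a median of -0.033. Of 56 small subunit probe sets, 42 were lower and 14 higher, with a median of -0.025. Groups did not overlap at 5 of the 44 and at 8 of the 56, against 6.36% of all tested probe sets. The difference between the subunits was not tested, and the 46 genes lay on 17 chromosomes.

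Probe set classes differed by value. All 26 probe sets ending in _a_at, which read alternative transcripts of 1 gene, were lower by value, with a median of -0.054 and a range from -0.14 to -0.001. Of the 31 ending in _at, 18 were lower and 13 higher, with a median of -0.011, and 12 of the 17 with a mean of at least 6 were lower, with a median of -0.038. Of the 40 ending in _x_at, 32 were lower and 8 higher, with a median of -0.025. The 3 ending in _s_at, 1 of Rps9 and 2 of Rpl22, ran from -0.036 to 0.062. The classes also differ in level, since 14 of the 16 members with a mean under 6 ended in _at, and those 16 were 9 higher and 7 lower with a median of 0.016. A further 110 probe sets carried several symbols with a ribosomal protein among them and are not named. Of these, 81 were lower and 29 higher, with a median of -0.026. The groups did not overlap at 8 (7.27%), against 6.36% of all tested probe sets.

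**Figure D3:**
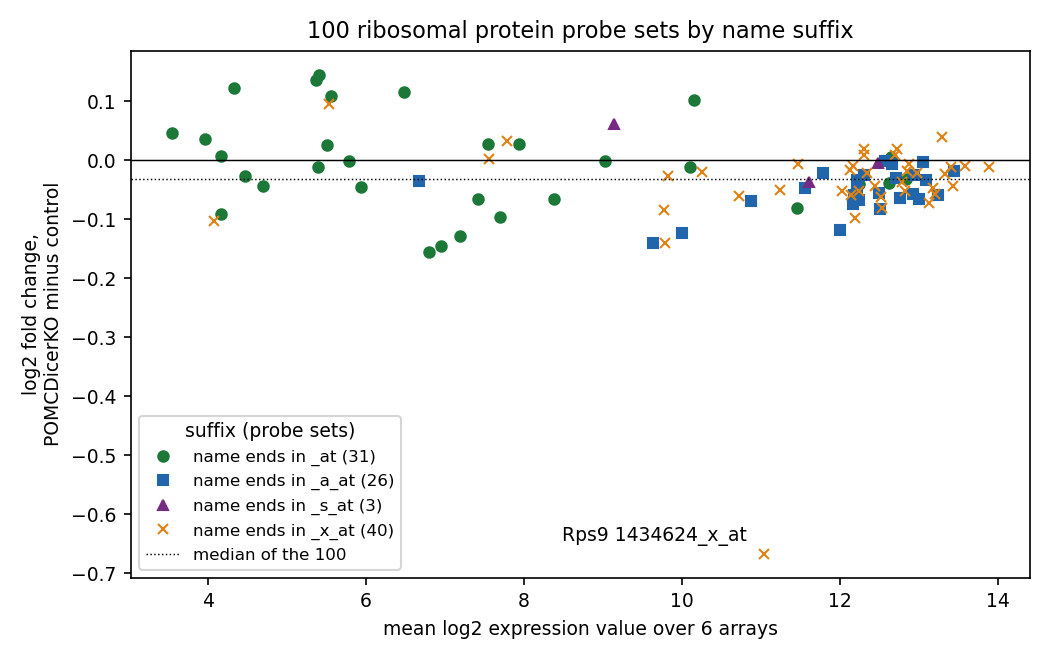
Log2 fold change, POMCDicerKO minus control, against the mean log2 expression value for each of the 100 ribosomal protein probe sets, by the suffix of its name. Bright probe sets cluster just below 0, around the dotted median of -0.032, dim ones scatter to either side, and Rps9 1434624_x_at stands alone at -0.67.

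Probe sets of 1 gene mostly lay close together, as did the members as a whole, 85 of 100 of which were under 0.1 in size. Of the 23 genes with more than 1 probe set, the range of log2 fold changes was under 0.1 in 14 and its median was 0.087. Among the 19 genes with more than 1 probe set of a mean of at least 6, it was under 0.1 in 15, with a median of 0.051. The widest ranges were those of Rps9 (0.80), Rps3 (0.20), Rps6 (0.17) and Rpl41 (0.16). All probe sets of a gene were lower in 10 of the 23 genes and higher in 1, Rpsa, and the other genes had probe sets of both signs. Since the same 6 arrays gave every value, a sign shared by a gene's probe sets is not separate evidence.

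**Figure D4:**
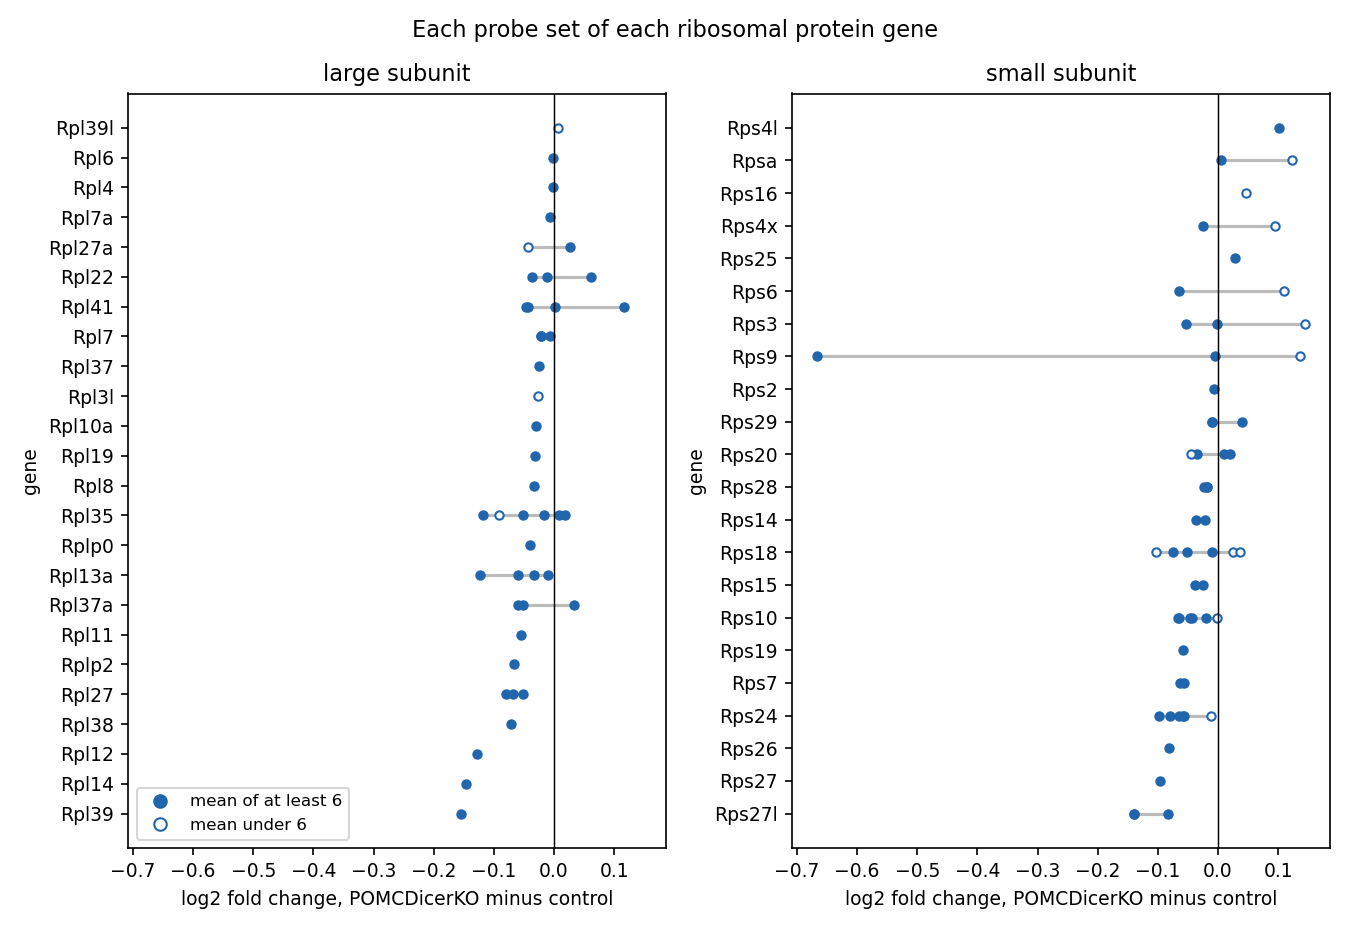
Log2 fold change of each probe set of the 46 genes, POMCDicerKO minus control, with large subunit genes left and small subunit genes right, a grey line joining probe sets of a gene, filled points for a mean of at least 6 and open points for dimmer probe sets. Rps9 spans 0.80, and the next widest gene, Rps3, spans 0.20.

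The lower values were largest in size on 1 array. Averaged over the 100 probe sets, the log2 difference from the control mean was -0.073, -0.037 and 0.010 on POMCDicerKO 1 to 3, and -0.021, 0.015 and 0.006 on controls 1 to 3. POMCDicerKO 3 thus lay among the controls, and control 1 between the POMCDicerKO arrays. Over the 60 members with a mean of at least 11, the averages were -0.085, -0.036 and -0.017 on POMCDicerKO 1 to 3. Controls 1 to 3 were at -0.002, 0.007 and -0.005, so POMCDicerKO 3 lay below each of them. By the median over these 60, POMCDicerKO 3 was at 0.002, among controls at -0.005, 0.009 and -0.008. POMCDicerKO 1 held the lowest value of the 6 arrays at 54 of the 100 probe sets, against 16.2% of all tested probe sets, and control 2 the highest at 40, against 20.6%. The 110 probe sets with several symbols gave the same order among the POMCDicerKO arrays, at -0.060, -0.025 and 0.004.

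POMCDicerKO 1 also stood apart in transcripts of cell types. Its mean difference from the control mean was 0.78 over 9 myelin genes, of which 9 were higher by value in POMCDicerKO, where POMCDicerKO 2 and 3 were at 0.12 and 0.41 and controls between -0.15 and 0.13. Over 6 arcuate genes, all 6 lower by value, it was -0.80, with -0.031 and -0.28 on the others and -0.29 to 0.38 on controls. Over 5 neuron genes it was 0.14, against -0.11 to 0.070 on controls. The defining arcuate transcripts Pomc, Npy and Ghrh were read on every array. The part of these cell types in the ribosomal protein values was not tested. Over 8 meningeal genes, all 8 lower by value, POMCDicerKO stood between -1.61 and -0.76, against 0.53, 0.51 and -1.05 on controls 1 to 3. Without controls 1 and 2 the ribosomal protein median was -0.028.

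**Figure D5:**
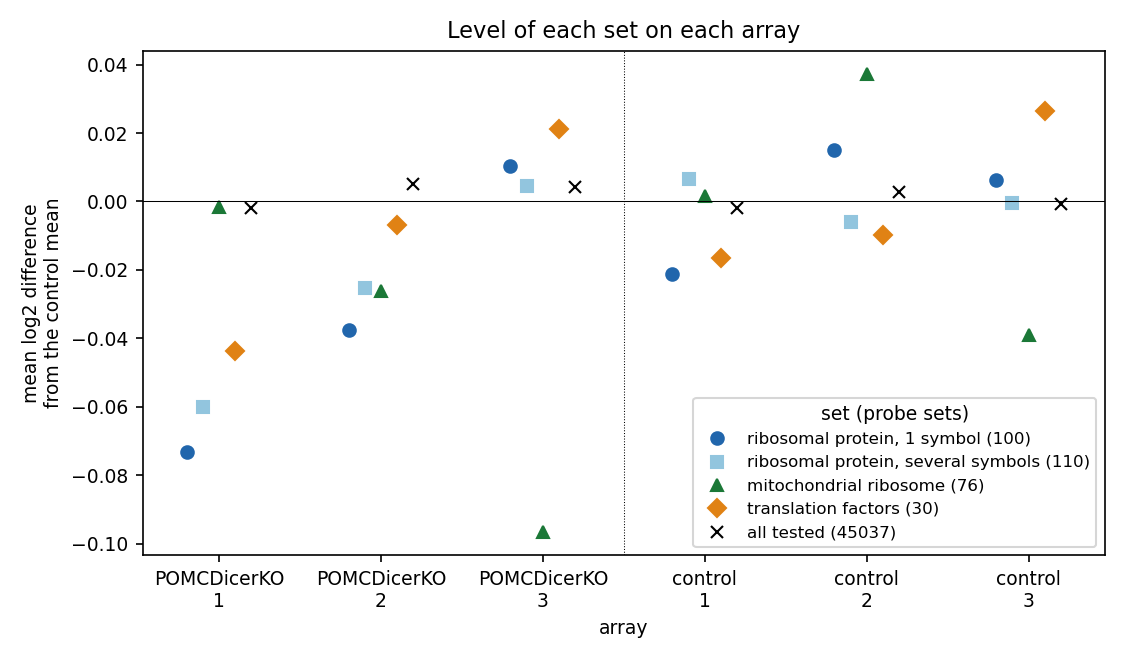
Mean log2 difference from the control mean on each array for 5 sets of probe sets, POMCDicerKO arrays left and control arrays right. The ribosomal protein sets are lowest on POMCDicerKO 1, at -0.073 and -0.060, and close to 0 on POMCDicerKO 3, while the mitochondrial ribosome set is lowest there, at -0.097.

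The array's own control probe sets also read 18S ribosomal RNA, of the small subunit. The 18S probe set for the 3′ end read 12.57, 12.67 and 12.61 in POMCDicerKO and 12.79, 11.18 and 12.54 in controls. Control 2 lay more than 1 log2 unit below the other arrays there, and it was also lowest at the 5′ set (11.37) and the middle set (10.49). The groups overlapped at each. The exact permutation p was 0.7, 0.6 and 0.8 for the 3′, 5′ and middle sets, and the smallest possible is 0.1. Ribosomal RNA lacks the poly(A) tail from which such labelling usually starts, so these sets give no measure of ribosome content.

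Other genes of the pathway gave no call. Of 4 further ribosomal genes outside the symbol rule, each represented by its brightest probe set as in the lists that follow, 0 passed, with a median of -0.042. The groups did not overlap at Rpl22l1, a paralog of Rpl22, which read 12.25, 12.34 and 12.37 in POMCDicerKO and 12.39, 12.41 and 12.45 in controls, at -0.093. That made 1 of the 4 genes (25%), against 6.36% of all tested probe sets. Rps3a1 was at -0.030. Of 30 translation factor genes, 20 were lower by value and 10 higher, with a median of -0.006. None reached an unadjusted limma p under 0.05, against 2.84% of all genes in the fit with 1 probe set per gene. The groups did not overlap at 1 of the 30 (3.33%), against 6.36% of all tested probe sets. The initiation factor subunits Eif3k and Eif3b were at -0.097 and -0.087.

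Of 76 mitochondrial ribosomal protein genes, whose ribosome is separate from the cytosolic one, 64 were lower by value and 12 higher, with a median of -0.034. None had an unadjusted p under 0.05, against 2.84% of all genes in the fit with 1 probe set per gene. The groups did not overlap at 6 (7.89%), against 6.36% of all tested probe sets and 5.40% of those with a mean of at least 6. With 1 probe set per gene, the cytosolic members did not overlap at 5 of 46 (10.9%). Mrpl44 and Mrpl28, of the mitochondrial large subunit, were at -0.15 and -0.13. These genes were lowest on POMCDicerKO 3, at -0.097, with -0.002 and -0.026 on POMCDicerKO 1 and 2 and -0.039 to 0.037 on controls, so the 2 ribosomes were low on different arrays.

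Of 39 genes of ribosome assembly and ribosomal RNA synthesis, 25 were lower and 14 higher by value, with a median of -0.013. At an unadjusted p under 0.05 there were 0, against 2.84% of all genes in the fit with 1 probe set per gene. Utp20, of the small subunit processome, was at -0.15 and Rpf2, which brings 5S ribosomal RNA to the large subunit, at -0.12, both with groups that did not overlap. That made 2 of the 39 genes (5.13%), against 6.36% of all tested probe sets. Of 8 host genes of small nucleolar RNAs, 5 were lower and 3 higher, with Snhg3 at -0.12 and Snhg7 at 0.088. Of 20 genes of growth signalling to the ribosome, 2 had an unadjusted limma p under 0.05, both lower, and 0 an adjusted p under the threshold. In the fit with 1 probe set per gene, 2.84% of all genes had such an unadjusted p. Myc, the transcription factor that drives ribosome synthesis, read 5.92, 5.98 and 5.84 in POMCDicerKO and 6.17, 6.17 and 6.07 in controls, at -0.22 with a standard error of 0.069. Its probe set was dim, with a mean of 6.03. Tsc2, which restrains mTOR, read 7.83, 7.82 and 7.76 in POMCDicerKO and 7.93, 8.07 and 7.93 in controls, at -0.17 with a standard error of 0.069. Both separated the groups, with an adjusted p of 1 by limma. They were 2 of the 20 genes (10%), against 6.36% of all tested probe sets.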

How the data were processed

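Per the submitters' processing notes, the deposited log2 values were made by the authors with RMA (affy package; no version named). In RMA, background correction and quantile normalisation precede the summary of each probe set, so a shift shared by most transcripts would have been removed. All 6 columns were used (0 unused) and 64 array control probe sets were left out of the tests. The number of arrays limits the precision. Members, lists and the naming rule were chosen with earlier results of these data known.

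The probe gene table gave 1 symbol to 34945 probe sets, several to 932 and none to 9160. Symbols were updated through RefSeq (GRCm38.p6), which changed 0 member symbols. RefSeq lists 81 protein-coding genes that match the symbol rule, 45 of them with a member. limma 3.58.1 in R 4.3.3 (lmFit, eBayes) gave the difference of POMCDicerKO from control over all 45037 probe sets, with Benjamini-Hochberg adjustment, a threshold of 0.05 and 95% intervals. No set test was run.

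Named were the 8 member probe sets with the smallest p in each direction, the other probe sets of those genes, the paralogs, the stalk genes, Rpsa, Rps6 and Rpl11, the 4 genes with the widest spread, and up to 2 genes of each related list. Genes at which the groups did not overlap were named after their values were seen.

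Tested on simulated data with 200 of 45037 probe sets changed, the fit recovered 54.5% of those set to a log2 change of 0.5 (11 false calls), 98% of those set to 1 (17 false calls) and 100% of those set to 2 (11 false calls). The simulated noise was normal and drawn independently for each probe set and array, and the 200 planted changes eased the adjusted threshold. These rates can thus overstate what the fit would recover from the measured arrays. Alternatives were further scaling, filters on low values, other variance settings, array weights, a replicate block, 1 probe set per gene, members without _x_at and _s_at sets, and leaving out arrays. Same-numbered arrays correlated at 0.128, 0.079 and 0.120 in their deviations from the group means across probe sets, and differently numbered ones at -0.114 to -0.018. The main fit took no account of the number. The labels name no batch, so none was tested.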

Additional observations from a re-analysis of the deposited data

Results flagged for a closer look

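Outside the fit, the array control probe sets for Gapdh, a glycolytic enzyme, were higher on each POMCDicerKO array than on any control array at the 5′ end and in the middle of the transcript. The 5′ set read 12.96, 12.92 and 12.92 in POMCDicerKO and 12.86, 12.79 and 12.84 in controls, a log2 difference of 0.1005. The middle set read 12.68, 12.59 and 12.62 in POMCDicerKO and 12.58, 12.52 and 12.59 in controls, a difference of 0.068. At the 3′ end the groups overlapped, with a difference of 0.037. The exact permutation p was 0.1 at the 5′ and the middle set, the smallest that 3 against 3 arrays allow. Both sets were picked among the array controls because their groups did not overlap, so that p followed from the choice. At the beta-actin control sets the groups overlapped, with exact permutation p of 0.5, 0.3 and 0.4 at the 3′, 5′ and middle sets. Control 2 held the lowest value at each Gapdh and beta-actin set. With 3 arrays in a group, single arrays were not tested as outliers.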

How the results depend on the processing

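Across 18 alternatives and 47 named probe sets, 732 of 781 values kept their direction and side of the threshold, 48 at 18 probe sets changed sign and 1 passed the threshold. The median over the ribosomal protein probe sets was -0.039 with each array centred, -0.030 after a further quantile normalisation, -0.040 with array weights and -0.034 without _x_at and _s_at probe sets, and -0.051 to -0.012 with 1 array left out. The count past limma's adjusted threshold was 1 with a robust, trended prior, where the count over all probe sets was also 1. Over all probe sets it was 0 to 2 with 1 array left out and 1 without controls 1 and 2. The single calls came without control 1 (1 probe set) and without control 3 (2 probe sets). Members with an unadjusted p under 0.05, 2 as reported, numbered 4 without moderation, where 2.66% of all probe sets had such a p, 3 with a trended prior (2.43% of all) and 3 with a robust, trended one (2.34%). They numbered 1 with 1 probe set per gene (1 of 46, against 2.84%), 1 without _x_at and _s_at probe sets (1 of 57, against 2.44%) and 4 without controls 1 and 2 (4.15% of all). With 1 array left out they numbered 1 to 3, with 1 without POMCDicerKO 1 (2.21% of all), 1 without POMCDicerKO 2 (2.62%) and 3 without control 1 (4.61%). With the replicate number as a block the count was 1 (3.10% of all). The labels give the numbers no meaning. Over all probe sets not every same-numbered pair correlated over 0.1, though each array correlated best with its own number. Over the members, POMCDicerKO 1 correlated best with control 2 (0.085) and POMCDicerKO 2 with control 1 (0.129), while POMCDicerKO 3 correlated best with control 3 (0.159). The cause was not tested for any of these.

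Changes of sign were as follows, and included bright probe sets of Rpl41 and Rps4l, at 0.10 as reported. With each array centred, Rpl39l was at -0.000067, Rpsa 1448245_at at -0.0017 and Rpl41 1454639_x_at at -0.0054. After a further quantile normalisation, Rpl39l was at -0.0041, Rps3 1455600_at at 0.00096 and Rps9 1433689_s_at at 0.011. With array weights, Rpl39l was at -0.077, Rpl3l at 0.0019, Rpsa 1448245_at at -0.0029, Rpl35 1434231_x_at at -0.00018 and Rpl41 1454639_x_at at -0.011. Without controls 1 and 2, Rps6 1453466_at was at -0.24, Rpl3l at 0.081, Rps4x 1416276_a_at at 0.0014, Rps24 1436500_at at 0.099 and Rps9 1433689_s_at at 0.042. There Rpl35 1434231_x_at was at -0.017 and 1436840_x_at at -0.030, and Rpl41 1422623_x_at at 0.015, 1454639_x_at at -0.0038 and 1455578_x_at at 0.0083. With 1 array left out, the range was -0.17 to 0.10 for Rpl39l, -0.011 to 0.032 for Rpsa 1448245_at, -0.11 to 0.11 for Rps3 1455600_at, -0.034 to 0.032 for Rps9 1433689_s_at and -0.091 to 0.092 for Rpl3l. It was -0.026 to 0.022 for Rpl41 1454639_x_at, -0.021 to 0.21 for Rpl41 1433530_at, -0.066 to 0.030 for Rps24 1436500_at and -0.23 to 0.074 for Rps24 1455195_at. For Rpl35 it was -0.023 to 0.027 at 1434231_x_at, -0.057 to 0.0073 at 1455950_x_at and -0.054 to 0.067 at 1436840_x_at. It was -0.039 to 0.013 for Rpl13a 1455485_x_at and -0.0044 to 0.17 for Rps4l. Low signal limits what can be read of Rpl3l, Rpl39l and the dim sets of Rps3, Rps6, Rps9 and Rpsa.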

Other observations

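Other cell type markers were read on the same arrays, as mean log2 differences from the control mean over each list. Over 8 microglial genes, all 8 higher by value, the POMCDicerKO arrays stood at 0.10, 0.13 and 0.12, against 0.074, 0.054 and -0.13 on controls. Over 4 blood genes, all 4 lower by value, they stood at -0.68, -0.68 and -0.46, against -0.55, 0.48 and 0.071 on controls. Over 5 astrocyte genes they stood at 0.030, 0.040 and -0.15, against -0.033, 0.12 and -0.082 on controls. Over 5 pituitary genes, 2 higher and 3 lower by value, they stood at 0.51, -0.96 and -0.024, against 0.070, 0.20 and -0.27 on controls. Those means joined large differences of opposite sign, with Gh at 1.64 and Cga at -2.37, and the groups overlapped at both genes. The POMCDicerKO arrays did not overlap the controls at the microglial list alone among these 4, and the lists' part in the ribosomal protein values was not tested.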
